A study of Mus musculus with 6 samples.

Results

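Cytochrome P450 enzymes and the enzymes that conjugate their products were followed in the colonic epithelium of wild-type and miR-31 knockout mice. The families were chosen with earlier results of these data known, and genes within them were taken by name. A probe belonged when its RefSeq accession matched a mouse gene of the cytochrome P450 (Cyp), glutathione S-transferase (Gst), UDP-glucuronosyltransferase (Ugt1 and Ugt2) or sulfotransferase (Sult) families, with Cyp51 and pseudogenes named -ps left out. The array carried 186 such probes for 151 genes. Of these, 111 genes with 133 probes reached a signal well above background on 3 or more of 6 arrays, among 17652 named genes and 41015 probes that met the same limit in the whole series. They comprised 70 Cyp, 20 Gst, 10 Ugt and 11 Sult genes.

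RNA came from 6 male mice, 3 of the wildtype genotype and 3 labelled miR-31 knockout, each on 1 Agilent one-colour array. The tissue is labelled colonic epithelium and was separated by flow before extraction, but the sources used here do not give the gate, the strain, the age or how the knockout was made. RefSeq (GRCm38.p6) places the mature miR-31-5p at chr4:88910614-88910635 on the minus strand. It is printed because its gene is the one the knockout mice lack, with the seed, bases 2 to 8, in capitals.
miR-31-5p: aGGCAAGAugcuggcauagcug

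Cytochrome P450 enzymes are membrane-bound haem proteins that insert an oxygen atom into their substrates. Members of families such as Cyp2 and Cyp3 act largely on drugs, food compounds and other foreign molecules, Cyp4 enzymes on fatty acids, and several others on sterols, bile acids, vitamin D or retinoic acid. Transferases then attach glutathione, glucuronic acid or sulfate to reactive or oxidised molecules, which makes most of them easier to excrete. Epithelial cells of the gut express many of these enzymes and meet compounds from food and bacteria before the liver does.

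Not all detected members could be tested. The scanner software marks spots that are uneven or stand out from their copies, and marked spots were left out. Marks fell mostly on bright member probes: of 71 member probes whose mean exceeded the 75th percentile, 46 were marked on at least 1 array and 33 on 3 or more, against 11 and 5 of the 62 dimmer ones. Between 7.52% (wild-type replicate 3) and 31.6% (wild-type replicate 1) of member spots were marked per array. This left 86 genes with at least 2 unmarked arrays in each group (57 Cyp, 15 Gst, 7 Ugt and 7 Sult), and 25 detected genes without enough. The 25 were measured with their marked spots kept and are described separately. The other 40 genes on the array were dim: 32 were well above background on no array, 5 on 1 and 3 on 2. Among them were Cyp1a1 and Cyp1b1, which are induced through the aryl hydrocarbon receptor, the steroid-forming Cyp11a1 and Cyp11b1, Cyp24a1, which inactivates vitamin D, and the glucuronosyltransferase Ugt2a3. At the limit of detection, Cyp26b1, Cyp2b10, Cyp4a30b and Cyp4f39 were included with 3 arrays above background, while Cyp2a22, Cyp4f15 and Ugt2b1, with 2, were not.

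In the test across all features, 0 of the 86 members passed an adjusted p under 0.05 (limma, Benjamini-Hochberg over 27916 features), where 0.208% of all features passed. The lowest adjusted p among the members was 0.275, that of Sult4a1. At an unadjusted p under 0.05, 4 members were higher and 8 lower in knockout epithelium. These are 4.65% and 9.3% of the 86, against 3.18% and 7.55% of all features. The 3 knockout arrays lay entirely above the wild-type arrays for 6 members and entirely below for 14, which is 6.98% and 16.3%, against 5.56% and 12.5% of all features. Among the 15251 tested features with a gene symbol, as all members have, 3.4% were higher and 5.83% lower at that p. Groups did not overlap for 6.69% and 10.3% of them. The members' shares of higher genes thus lay near the background. Their shares of lower genes were above it, more so against features with a symbol, and this excess was not tested. The 4 and 8 were 9 and 6 with quantile normalization. Without wild-type replicate 1 they were 2 and 3, without wild-type replicate 2 they were 5 and 2, without wild-type replicate 3 they were 4 and 12, without knockout replicate 2 they were 2 and 7, and without knockout replicate 3 they were 6 and 4. With p adjusted over every feature, single-gene differences named hereafter did not pass, and their unadjusted p-values are given as descriptions from the same limma fit.

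The median log2 change, knockout minus wild-type, was -0.05 over the members and -0.06 over all features, and 60.5% of members and 61.5% of all features lay below 0. Over the tested features with a gene symbol the median was -0.03, and 57.1% lay below 0. By family the members' median was -0.10 for Cyp, -0.01 for Gst, 0.10 for Ugt and -0.31 for the 7 tested Sult genes. The Ugt median was -0.092 with slide column as a block, -0.014 when wild-type replicate 3 was left out and -0.056 when knockout replicate 3 was, so its sign depends on these settings. For 66 of the 86 members the 95% interval of the change lay within 2-fold in both directions, which is 76.7%, against 84.6% of all features. This held for all 7 tested Ugt genes, 14 of 15 Gst genes and 42 of 57 Cyp genes, but for only 3 of 7 Sult genes. A fitted change of at least 2-fold was seen for 5 members, all of them Cyp genes (5.81% of members, 2.01% of all features): Cyp4b1, Cyp3a44, Cyp2c23, Cyp26b1 and Cyp2a12.

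**Figure D1:**
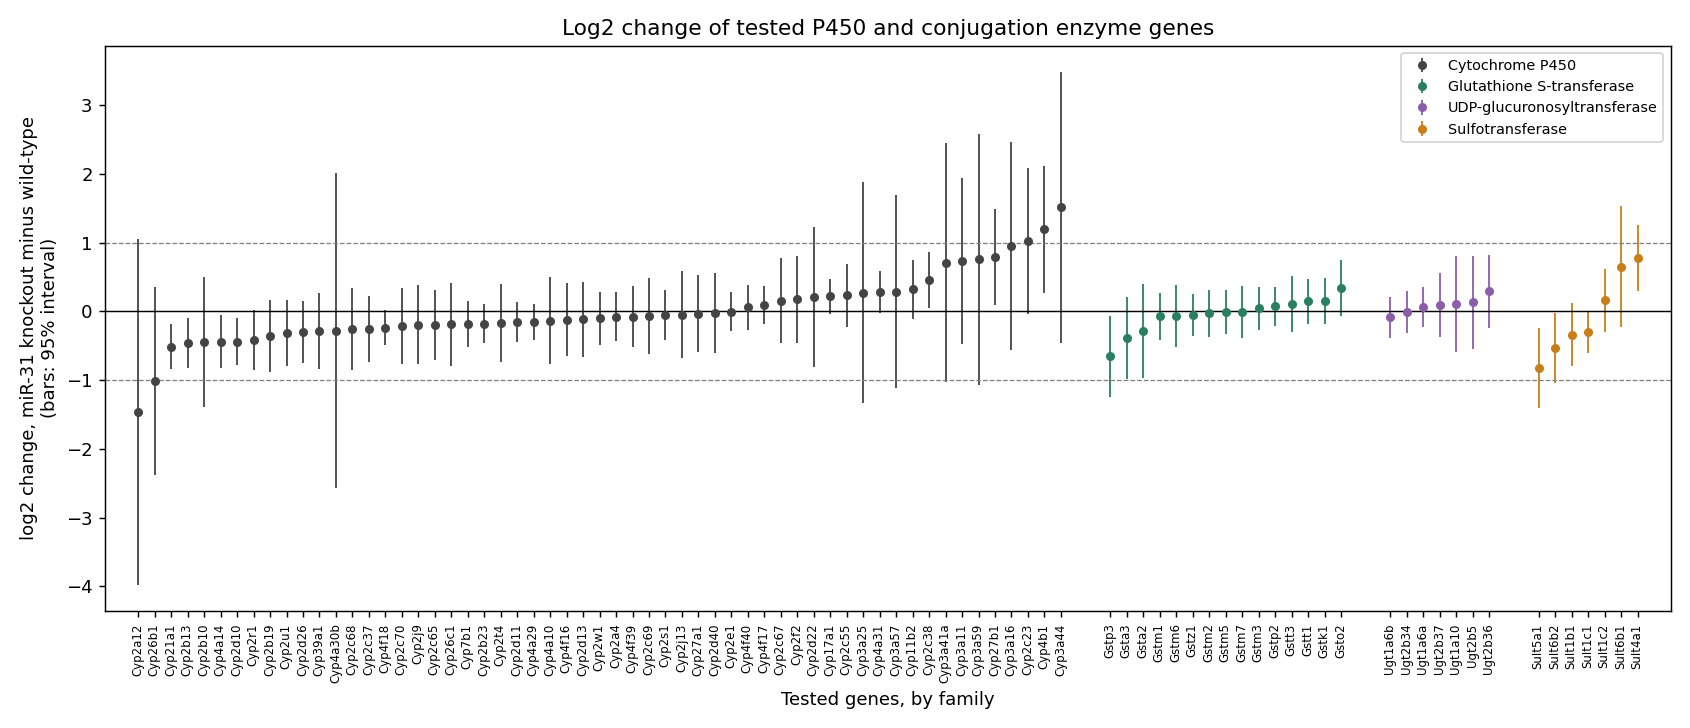
Log2 change (knockout minus wild-type) of the 86 tested genes, in order of size within each family, with 95% intervals from limma; dashed lines mark 2-fold. The intervals of all 7 Ugt genes and of 14 of 15 Gst genes lie between the dashed lines, and the widest belong to Cyp genes such as Cyp2a12, Cyp4a30b and the Cyp3a group.

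All log2 levels that follow are relative to the 75th percentile of their own array, wild-type and knockout replicates are given in the order 1 to 3, and errors of changes are standard errors with 3 arrays in each group unless stated. Arrays cannot tell fewer cells of a type from less RNA per cell. Paralogs within Cyp2b, Cyp2c, Cyp2d, Cyp3a, Cyp4a, Gstm and Ugt2b are alike in sequence, and how far a probe takes up RNA of a neighbour was not tested.

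Among the P450 enzymes of foreign compounds, the Cyp3a group had the largest median difference of the subfamilies with at least 3 tested genes. Cyp3a enzymes oxidise a wide range of drugs and are induced by the xenobiotic receptor Pxr (Nr1i2). The log2 change lay above 0 for all 7 tested Cyp3a genes (median 0.73), but 0 of 7 had an unadjusted p under 0.05 and 0 of 7 had groups that did not overlap. Cyp3a13, the brightest detected Cyp3a gene, was left out for marked spots. With these kept its log2 change was -0.17 ± 0.22, and 7 of 8 Cyp3a genes lay above 0 (median 0.72). A block for the number in the sample title, here called animal number, was also fitted in limma. It set replicates 1 and 2 of each genotype, whose numbers start with the same digits, against the replicate 3 mice. The replicate 3 numbers differ from each other in these leading digits but were pooled as 1 level. The labels do not say what the digits mean. With this block 3 of 7 had an unadjusted p under 0.05, namely Cyp3a44 (0.0112), Cyp3a11 (0.0203) and Cyp3a16 (0.038), at adjusted p = 0.269, 0.314 and 0.372. The slide column block and the fit without knockout replicate 1 also had 3 of 7, and array weights had 1 of 7. Cyp3a44 measured -4.69, -3.79 and -2.47 on the wild-type arrays and -3.62, -2.22 and -0.57 on the knockout arrays. Wild-type replicate 3 was above knockout replicate 1, so the groups overlapped. The log2 change was 1.51 ± 0.83 (adjusted p = 0.568). Cyp3a11, the main Cyp3a enzyme of mouse liver, measured -2.65, -2.43 and -1.69 in wild-type and -2.34, -1.86 and -0.38 in knockout mice. Its groups likewise overlapped, and its log2 change was 0.73 ± 0.51 (adjusted p = 0.658).

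The spread within each genotype was wider than the difference between them. For all 7 tested Cyp3a genes wild-type replicate 3 was the highest wild-type array and knockout replicate 3 the highest knockout array. The median range within a group was 2.22 log2 units in wild-type and 2.15 in knockout mice, against 0.41 and 0.39 over members and 0.34 and 0.35 over all features measured on every array. The bright Cyp3a13, with marked spots kept, measured 2.41, 1.63 and 2.18 in wild-type and 1.94, 1.73 and 2.04 in knockout mice. Its highest wild-type array was thus replicate 1. Cyp3a16 ran from -6.20 to -5.09 in wild-type and from -5.93 to -3.31 in knockout mice, and Cyp3a41a, Cyp3a59, Cyp3a57 and Cyp3a25 had log2 changes of 0.71, 0.76, 0.29 and 0.27. Without knockout replicate 3 the Cyp3a median was 0.16, with 4 genes above 0 and 3 below. Without wild-type replicate 1 it was 0.43, with 5 above and 2 below, and without wild-type replicate 3 it was 1.06. Leaving out knockout replicate 1 gave a median of 1.27.

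**Figure D2:**
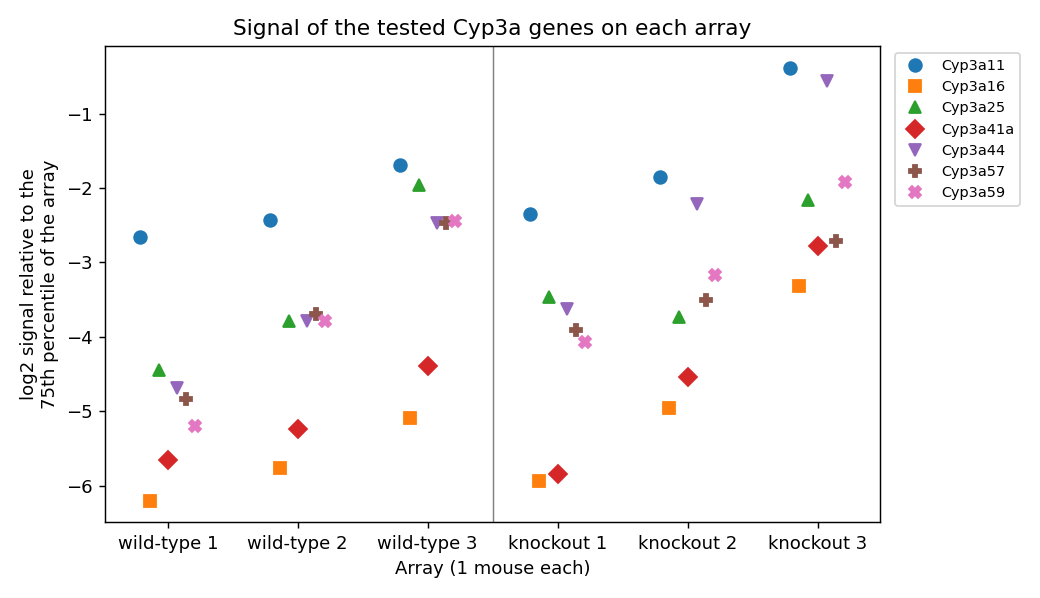
Log2 signal relative to the array's 75th percentile (vertical axis) of the 7 tested Cyp3a genes on each of the 6 arrays, 1 mouse each. Within each genotype every gene is highest on replicate 3, and the groups overlap for all 7.

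Markers of gut region also differed between these arrays. Mean log2 levels of 4 measured small intestine markers (Sis, Alpi, Fabp2 and Defa24, with marked spots kept) were 0.08, 0.41 and 0.59 in wild-type and 0.07, 0.59 and 1.19 in knockout mice. These means were highest on the same arrays as Cyp3a, but the single markers differed. Fabp2 and Defa24 were highest on replicate 3 in both genotypes. Sis was highest on knockout replicate 3 but lowest on wild-type replicate 3 (-1.64, -1.36 and -1.99 in wild-type). Alpi was highest on replicate 2 in both genotypes (-0.63, 0.18 and -0.12 in wild-type, 0.21, 0.71 and 0.13 in knockout mice). The summed level of that list overlapped between genotypes (15.6 to 18.9 and 15.6 to 19.9 times the 75th percentile). Fabp2 alone made up 82.1% to 91.1% of that sum, and the other 3 summed to 1.39 to 2.54 in wild-type and 1.74 to 3.57 in knockout mice, which also overlapped. Lct, the lactase of small intestinal enterocytes, was above background on no array, and Apoa4, an apolipoprotein of enterocytes, on 2. Of 3 proximal colon markers (Hoxb6, Hoxb8 and Osr2), 2 were higher in knockout mice at an unadjusted p under 0.05, with a median log2 change of 0.55 and summed levels of 3.96 to 6.07 in wild-type and 5.59 to 7.49 in knockout mice. Of 4 distal colon markers 1 was lower (Hoxb13, log2 change -0.30), with summed levels of 12.1 to 13.5 and 9.95 to 11.48 that did not overlap. Hoxb13 alone made up 59.6% to 65.7% of that sum. The other distal markers summed to 4.61 to 4.75 in wild-type and 3.61 to 4.64 in knockout mice, which overlapped. None of these markers passed the adjusted threshold. Their part in the differences of P450 and conjugation genes was not tested. Of 5 hepatocyte markers, Fgb, the fibrinogen beta chain gene, was above background on no array. Summed levels of the other 4 were 2.21 to 3.31 in wild-type and 1.75 to 2.47 in knockout mice, of which Ttr made up 85.6% to 95.7%. Without Ttr the sums were 0.14 to 0.24 in wild-type and 0.22 to 0.30 in knockout mice, which overlapped. The median log2 change of these 4 markers was 0.17.

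The 7 tested Cyp3a genes lie in 2 groups by the sequence before their start sites. The 250 bases before the start of Cyp3a44 were 94.4% identical to those of Cyp3a41a, 92.9% to Cyp3a16 and 71.7% to Cyp3a11, whereas Cyp3a25, Cyp3a57 and Cyp3a59, 88.9% to 94.8% identical among themselves, matched the first group at 48.4% to 53.1% of aligned positions. The sequences of the first group, which holds the 2 largest Cyp3a differences, are printed from RefSeq (GRCm38.p6, all on the minus strand). Capitals mark bases that differ from Cyp3a44 in the alignment, with bases that Cyp3a44 lacks also in capitals. Cyp3a44 lies at chr5:145805875-145806124, Cyp3a41a at chr5:145720137-145720386, Cyp3a16 at chr5:145469724-145469973 and Cyp3a11 at chr5:145879855-145880104.
Cyp3a44: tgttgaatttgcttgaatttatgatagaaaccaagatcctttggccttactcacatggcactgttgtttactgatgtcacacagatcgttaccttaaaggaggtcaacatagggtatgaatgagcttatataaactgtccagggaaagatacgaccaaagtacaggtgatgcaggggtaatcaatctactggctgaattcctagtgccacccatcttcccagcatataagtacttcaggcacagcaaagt
Cyp3a41a: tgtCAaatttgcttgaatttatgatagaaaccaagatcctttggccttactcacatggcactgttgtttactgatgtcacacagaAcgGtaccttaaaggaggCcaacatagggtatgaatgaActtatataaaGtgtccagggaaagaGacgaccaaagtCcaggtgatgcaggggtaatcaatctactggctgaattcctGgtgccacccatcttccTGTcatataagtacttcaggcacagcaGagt
Cyp3a16: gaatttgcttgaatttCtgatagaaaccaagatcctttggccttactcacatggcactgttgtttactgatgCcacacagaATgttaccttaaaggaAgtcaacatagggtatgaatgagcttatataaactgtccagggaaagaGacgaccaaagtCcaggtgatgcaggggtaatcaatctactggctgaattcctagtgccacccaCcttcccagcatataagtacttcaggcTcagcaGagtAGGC
Cyp3a11: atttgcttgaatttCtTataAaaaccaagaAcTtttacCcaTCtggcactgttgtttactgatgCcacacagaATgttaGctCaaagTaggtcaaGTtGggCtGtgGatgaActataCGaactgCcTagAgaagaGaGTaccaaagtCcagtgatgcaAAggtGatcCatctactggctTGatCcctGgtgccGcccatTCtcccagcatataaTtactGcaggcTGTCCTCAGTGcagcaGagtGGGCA

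The letters searched were GCGTG, the core of the aryl hydrocarbon receptor's response element, and TGACNNNGC, the core of the antioxidant response element, on both strands of the 300 bases from 250 before to 50 after the start. The 2 motifs were counted separately. Neither occurs in the 4 printed windows. Of 111 detected members 92 had a promoter in the table. Among them 18 held GCGTG (19.6%, against 32.5% of 27025 promoters) and 7 held TGACNNNGC (7.61%, against 12.5%). Of 9 Ugt promoters 0 held either motif, and of 18 Gst promoters 5 held GCGTG (Gsta2, Gstm1, Gstm5, Gstp1 and Gstp3) and 2 held TGACNNNGC (Gsta3 and Gstm5).

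The tested Cyp2b and Cyp2d genes had mostly negative values, as had 61.5% of all features and 57.1% of those with a gene symbol. Cyp2b enzymes are classic targets of the receptor Car (Nr1i3) in liver. All 4 tested Cyp2b genes had a negative log2 change, with a median of -0.40. Cyp2b13 measured -4.55, -4.57 and -4.94 in wild-type and -5.06, -5.09 and -5.29 in knockout mice. Every knockout array was lower, at a log2 change of -0.46 ± 0.15 (unadjusted p = 0.019, adjusted p = 0.363). Cyp2b10, the phenobarbital-inducible form, was above background on 3 arrays, ran from -7.22 to -5.77 in wild-type and from -7.23 to -6.49 in knockout mice, and had a log2 change of -0.44 ± 0.40.

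Cyp2d enzymes oxidise many basic drugs in the liver and gut. Of 6 tested Cyp2d genes 5 had a negative log2 change, with a median of -0.14, and Cyp2d22 was the exception at 0.21. Cyp2d10 measured 2.69, 2.66 and 2.29 in wild-type and 2.07, 2.11 and 2.14 in knockout mice. The groups did not overlap, with wild-type replicate 3 nearest to the knockout arrays. Its log2 change was -0.44 ± 0.14 (unadjusted p = 0.018, adjusted p = 0.358). Cyp2d26 had 2 unmarked arrays in each group, at 3.27 and 3.00 in wild-type and 2.88 and 2.79 in knockout mice. Its log2 change was -0.30 ± 0.17, and a second probe gave -0.07 ± 0.24. The transcribed pseudogene Cyp2d13 had a log2 change of -0.12 ± 0.22 (n = 2 and 3).

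The Cyp2c genes were split, 4 above and 5 below 0, with a median of -0.07. Cyp2c55, an abundant colonic P450 that oxidises arachidonic acid, had 2 unmarked arrays per group, at 4.30 and 4.13 in wild-type and 4.33 and 4.57 in knockout mice. Its log2 change was 0.23 ± 0.18 (adjusted p = 0.695). Cyp2c65, a related gut form, had a log2 change of -0.19 ± 0.21 (n = 2 and 3). Cyp2c38 measured -5.66, -5.55 and -5.74 in wild-type and -4.91, -5.15 and -5.50 in knockout mice. Its knockout arrays were all higher, by the smallest margin on replicate 3, and its log2 change was 0.46 ± 0.17 (unadjusted p = 0.0307, adjusted p = 0.408). Cyp2c23, an arachidonic acid epoxygenase, measured -3.02, -3.17 and -4.78 in wild-type and -2.55, -2.84 and -2.50 in knockout mice. The groups did not overlap, but wild-type replicate 3 lay far below the others, and the log2 change was 1.02 ± 0.45 (unadjusted p = 0.0567). A second Cyp2c23 probe, of another accession, overlapped and gave 0.39 ± 0.35.

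Several other Cyp2 enzymes were tested. Cyp2e1, which oxidises ethanol and small solvents, had the value closest to 0 among the fixed set, -0.002 ± 0.12, with all 6 arrays between -5.46 and -5.21. Cyp2s1, an epithelial P450, gave -0.05 ± 0.15, and Cyp2f2, known from airway cells, 0.18 ± 0.27. Cyp2r1, which makes 25-hydroxyvitamin D, measured -1.09, -1.14 and -0.99 in wild-type and -1.31, -1.28 and -1.87 in knockout mice. Its knockout arrays were all lower, at a log2 change of -0.41 ± 0.18 (unadjusted p = 0.058). Cyp2a12, singled out after its values were seen, measured -5.61, -5.62 and -6.22 in wild-type and -4.52, -8.85 and -8.46 in knockout mice. Knockout replicate 1 was the highest of all arrays and the other knockout arrays lay under the detection floors of -6.59 and -6.69, each the lowest detected signal on its array, so the log2 change of -1.46 ± 1.06 had an adjusted p of 0.671. Without knockout replicate 1 the adjusted p was 0.0369, but both remaining knockout signals were not well above background, so the fitted size is not a measured fold. Against the floors of those 2 arrays Cyp2a12 was at least 1.77-fold lower there. Over all alternatives its adjusted p ran from 0.0369 to 0.939.

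Among the P450 enzymes of fatty acids, Cyp4b1 had the largest difference. Cyp4b1 oxidises fatty acids and some protoxins, mainly outside the liver. It measured -0.35, -0.14 and 0.54 in wild-type and 0.53, 1.13 and 1.97 in knockout mice. Only wild-type replicate 3 and knockout replicate 1 overlapped, by 0.01 log2 units. The log2 change was 1.19 ± 0.39 (unadjusted p = 0.0188, adjusted p = 0.363), its sign was the same in 18 of 18 alternatives and its value ran from 0.81 to 1.53. On chromosome 4, which also carries Mir31, 163 protein-coding genes lie between the 2. Of the 8 tested members on that chromosome 2 had an unadjusted p under 0.05, Cyp4b1 and Cyp4a14, with a median log2 change of -0.15 over the 8.

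The Cyp4a genes, fatty acid hydroxylases that follow the receptor Ppara in liver, had 4 of 5 values below 0. Cyp4a14 measured -4.56, -4.54 and -5.05 in wild-type and -5.19, -5.17 and -5.13 in knockout mice. The knockout arrays were all lower, close to wild-type replicate 3, with a log2 change of -0.44 ± 0.16 (unadjusted p = 0.0302, adjusted p = 0.405). Cyp4a10 gave -0.14 ± 0.27, and Cyp4a31 went the other way at 0.28 ± 0.13 (unadjusted p = 0.068) without overlap. The 5 tested Cyp4f genes, several of which inactivate leukotrienes, stayed between -0.24 and 0.09.

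P450 enzymes of steroids, vitamin D and retinoic acid were mostly dim. Cyp27b1, which makes the active form of vitamin D, measured -7.20, -6.01 and -6.74 in wild-type and -5.88, -5.65 and -6.04 in knockout mice. Wild-type replicate 2 lay within the knockout range, and the log2 change was 0.79 ± 0.30 (unadjusted p = 0.0319, adjusted p = 0.413). Cyp27a1, the sterol 27-hydroxylase, gave -0.03 ± 0.23 (n = 3 and 2). Cyp26b1, which degrades retinoic acid, was above background on 3 arrays and gave -1.01 ± 0.58 (adjusted p = 0.583), with groups that overlapped.

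Cyp21a1, the steroid 21-hydroxylase of the adrenal cortex, gave opposite results by probe. The brighter probe measured -4.22, -4.09 and -4.41 in wild-type and -4.63, -4.89 and -4.73 in knockout mice, all knockout arrays being lower. Its log2 change was -0.51 ± 0.14 (unadjusted p = 0.0075, adjusted p = 0.291). The second probe, of the same accession, measured -5.93, -5.96 and -5.80 in wild-type and -4.86, -4.27 and -4.05 in knockout mice. There all knockout arrays were higher, by a log2 change of 1.503 ± 0.21 (unadjusted p = 0.000212, adjusted p = 0.0729 when every probe was tested separately, with 0 of 93 member probes called). No direction can therefore be given for Cyp21a1. Of 3 other adrenal markers, with marked spots kept, Star, the cholesterol carrier of steroid-forming cells, had a log2 change of -0.50, Mc2r, the corticotropin receptor, one of -0.58 and Hsd3b1, a steroid dehydrogenase, one of 0.21 (adjusted p = 0.428, 0.417 and 0.824). With marked spots left out Hsd3b1, by another probe, gave -0.14. Their part in the Cyp21a1 values was not tested. Of 7 genes with several tested probes, 5 had all probes on 1 side of 0, Cyp21a1 and Gsto2 being the exceptions.

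**Figure D3:**
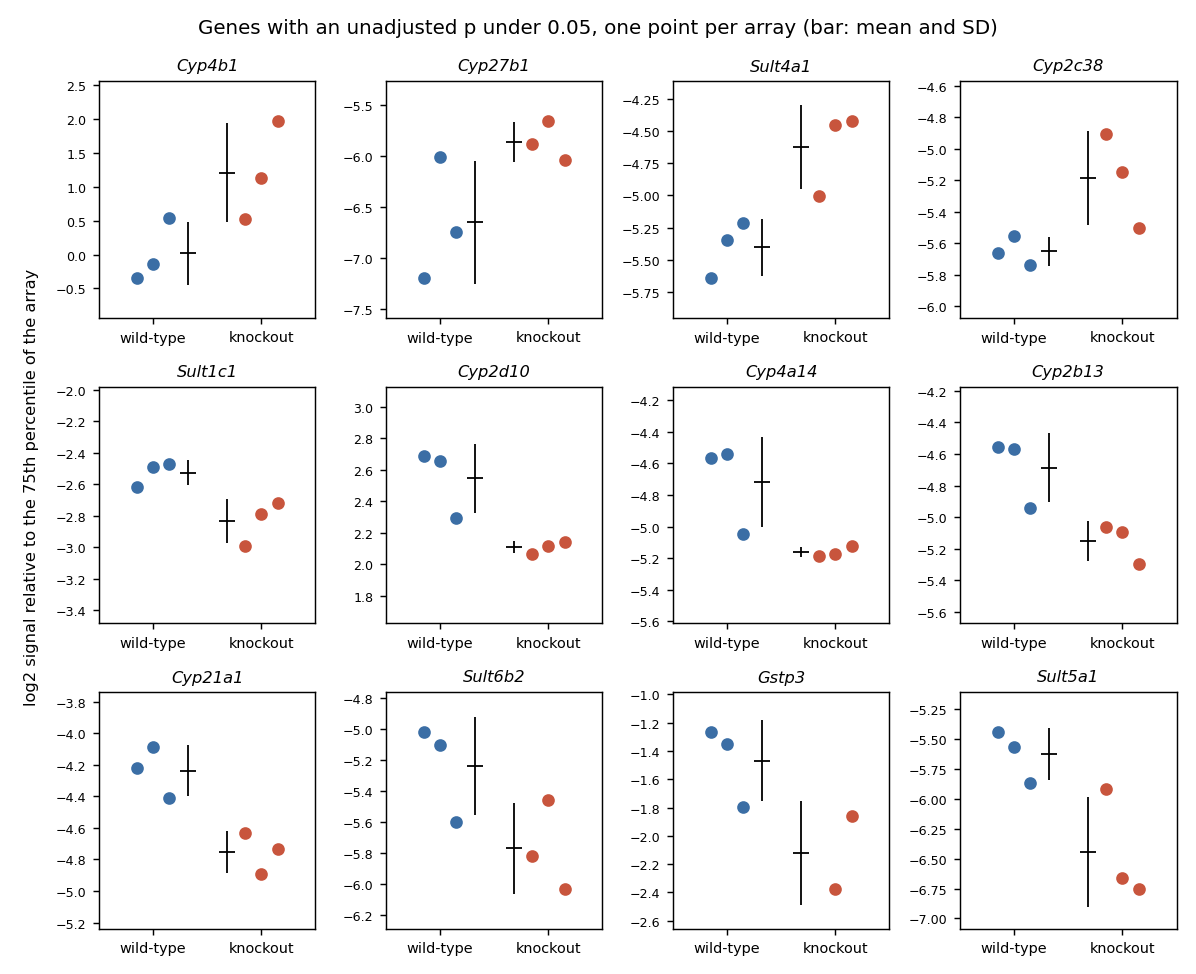
Log2 signal relative to the array's 75th percentile for the 12 genes with an unadjusted p under 0.05, 1 point per array, with the mean and SD of each group; each panel has its own scale. The 4 genes higher in knockout mice are Cyp4b1, Cyp27b1, Sult4a1 and Cyp2c38, and 0 of the 12 passed an adjusted p under 0.05.

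Glutathione S-transferases, which join glutathione to electrophiles, were nearly flat. Of 15 tested genes 6 had a positive and 9 a negative log2 change, and 1 had an unadjusted p under 0.05. With marked spots kept, 0 of 20 did. The 6 tested Gstm genes stayed between -0.07 and 0.04. Gstm1, for example, measured 2.49, 2.38 and 2.13 in wild-type and 2.12, 2.41 and 2.27 in knockout mice. The groups overlapped in part, with a log2 change of -0.07 ± 0.14 and a 95% interval from -0.41 to 0.27. Brighter probes of Gstm1 and Gstm6 were marked on 4 and 6 arrays. With marked spots kept they gave -0.09 ± 0.15 and -0.32 ± 0.20, both with overlap. Gstm3 gave 0.04 ± 0.13, Gstt1 0.15 ± 0.14, Gstt3 0.11 ± 0.17, the mitochondrial and peroxisomal Gstk1 0.15 ± 0.14 and Gstz1, which also degrades tyrosine products, -0.05 ± 0.13.

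Of the alpha class, which also reduces lipid hydroperoxides, Gsta3 and Gsta2 could be tested with marked spots left out, and both had small negative values, whereas the marked Gsta4, described with the marked genes, had a positive one. Gsta3 measured 1.67, 2.24 and 1.20 in wild-type and 1.35, 1.24 and 1.36 in knockout mice. The wild-type arrays spread on both sides of the knockout arrays, and the log2 change was -0.39 ± 0.25 (adjusted p = 0.633). Gsta2 gave -0.28 ± 0.28 (n = 2 and 3). In the pi class, Gstp3 measured -1.26, -1.35 and -1.80 in wild-type and -2.38 and -1.86 on knockout replicates 2 and 3, replicate 1 being marked. The groups did not overlap, by a margin of less than 0.1 between wild-type replicate 3 and knockout replicate 3. The log2 change of Gstp3 was -0.65 ± 0.24 (unadjusted p = 0.0347, adjusted p = 0.423), while its relative Gstp2 gave 0.08 ± 0.12. With the marked spot kept, knockout replicate 1 measured -1.46 for Gstp3, within the wild-type range. The groups then overlapped, at a log2 change of -0.43 ± 0.26 (limma, unadjusted p = 0.139). Gsto2, an omega-class enzyme, gave 0.35 ± 0.17 by 1 probe and -0.06 ± 0.25 by the other.

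UDP-glucuronosyltransferases, which attach glucuronic acid to bilirubin, steroids and drugs, had small differences. Of 7 tested genes 5 had a positive and 2 a negative log2 change, with 0 at an unadjusted p under 0.05 and 0 whose groups did not overlap. Ugt2b34 measured 3.69, 3.60 and 3.54 in wild-type and 3.41, 3.69 and 3.70 in knockout mice. The knockout arrays spanned the wild-type ones, and its log2 change was -0.01 ± 0.13 with a 95% interval from -0.32 to 0.30. Ugt2b5, Ugt2b36 and Ugt2b37 gave 0.13 ± 0.26 (n = 2 and 2), 0.29 ± 0.22 (n = 2 and 3) and 0.10 ± 0.20. Among the Ugt1a genes, which share their last exons, Ugt1a6a measured 0.23, 0.20 and 0.07 in wild-type and 0.08, 0.29 and 0.32 in knockout mice. The groups overlapped in part, knockout replicates 2 and 3 lying above every wild-type array, with a log2 change of 0.06 ± 0.12. Ugt1a6b gave -0.09 ± 0.13 and Ugt1a10 0.11 ± 0.27 (n = 2 and 2). Ugt1a1, Ugt1a7c and Gsta1 had no matched probe and were not analysed here.

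Sulfotransferases, which attach sulfate to phenols, steroids and amines, held the lowest p among the 86 members tested with marked spots left out. Of 7 tested genes 3 had a positive and 4 a negative log2 change. At an unadjusted p under 0.05, 1 was higher and 3 were lower (14.3% and 42.9% of the 7, against 3.18% and 7.55% of all features), and the groups did not overlap for 4 of 7 (57.1%, against 18.0%). Their median of -0.31 was 0.36 without the filter on dim probes and -0.065 with marked spots kept. With marked spots kept, 1 of 11 was higher and 3 lower at an unadjusted p under 0.05 (9.09% and 27.3%, against 3.24% and 7.13%). The groups then did not overlap for 3 of 11 (27.3%, against 15.5% of all features). Sult4a1, an orphan sulfotransferase known from neurons, measured -5.65, -5.35 and -5.21 in wild-type and -5.004, -4.45 and -4.42 in knockout mice. All knockout arrays were higher, with replicate 1 nearest to the wild-type arrays. The log2 change was 0.78 ± 0.20 (unadjusted p = 0.00638, adjusted p = 0.275), and its sign was the same in 18 of 18 alternatives, with values from 0.52 to 0.97. Sult5a1 measured -5.44, -5.57 and -5.86 in wild-type and -5.92, -6.67 and -6.76 in knockout mice, where only 1 array was well above background. The knockout arrays were all lower, by a narrow margin on replicate 1, at a log2 change of -0.82 ± 0.25 (unadjusted p = 0.0126, adjusted p = 0.326). A second Sult5a1 probe, above background on every wild-type and no knockout array, gave a log2 change of -0.61 ± 0.23. As a bound, it was at least 1.02-fold lower, from the wild-type mean against, per knockout array, the higher of its own signal and the lowest detected signal.

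The remaining sulfotransferases had smaller values. Sult1c1 measured -2.62, -2.49 and -2.47 in wild-type and -2.99, -2.79 and -2.72 in knockout mice. Every knockout array was lower, by a log2 change of -0.31 ± 0.13 (unadjusted p = 0.0448, adjusted p = 0.452). Sult6b2 overlapped, with a log2 change of -0.53 ± 0.22 (unadjusted p = 0.0432), and Sult6b1 gave 0.65 ± 0.37. Sult1b1, which sulfates thyroid hormone and phenols in the gut, measured 1.07, 1.09 and 1.36 in wild-type and 0.62 and 1.04 on knockout replicates 2 and 3, replicate 1 being marked. The groups did not overlap but came within 0.03 log2 units of each other, and the log2 change was -0.34 ± 0.19 (adjusted p = 0.579). A brighter Sult1b1 probe, marked on 4 arrays, overlapped with marked spots kept. It measured 2.97, 2.92 and 2.86 in wild-type and 2.58, 2.77 and 2.91 in knockout mice, at a log2 change of -0.16 ± 0.13. Sult1c2 gave 0.16 ± 0.19 (n = 2 and 3).

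The 25 detected genes that were left out for marked spots include many of the bright enzymes of the epithelium, among them Gstp1, Gsto1, Sult1a1, Sult1d1, Cyp2c66, Cyp2d9 and Cyp4f14. With marked spots kept, 111 members were measured and 0 passed an adjusted p under 0.05, where 0.17% of 32275 features passed. At an unadjusted p under 0.05, 4 were higher and 9 lower, beside 3.24% and 7.13% of all features, and the groups did not overlap for 5 higher and 13 lower, beside 4.7% and 10.8%. Values of marked spots may be less reliable, and each of these 25 genes rests on 2 to 6 of them.

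Of the 25, Cyp2c40 and Cyp2d9 had an unadjusted p under 0.05. Cyp2c40, an arachidonic acid hydroxylase of the gut, measured 1.05, 1.47 and 1.13 in wild-type and 0.59, 0.51 and 0.37 in knockout mice, with 3 of 6 arrays marked. The groups were well apart, at a log2 change of -0.72 ± 0.15 (unadjusted p = 0.00202, adjusted p = 0.207). Cyp2d9 measured 2.98, 2.86 and 2.64 in wild-type and 2.16, 2.20 and 2.56 in knockout mice, with 3 arrays marked. Knockout replicate 3 came close to wild-type replicate 3, and the log2 change was -0.51 ± 0.16 (unadjusted p = 0.0151, adjusted p = 0.356). With Cyp2d12 and Cyp2d34 at -0.35 and -0.37, 8 of 9 Cyp2d genes then had a negative log2 change, with a median of -0.30.

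The other marked genes mostly lay close to 0. Gsta4, which detoxifies the lipid product 4-hydroxynonenal, was marked on all 6 arrays and measured 0.99, 1.12 and 1.68 in wild-type and 2.22, 2.16 and 1.34 in knockout mice. Knockout replicate 3 lay within the wild-type range, and the log2 change was 0.64 ± 0.29 (unadjusted p = 0.0595). Cyp4f14, a leukotriene hydroxylase, gave -0.39 ± 0.25, Gsto1 -0.23 ± 0.13, Cyp3a13 -0.17 ± 0.22, Cyp2j6 0.12 ± 0.22 and Gstp1 0.06 ± 0.23. The phenol and dopamine sulfotransferases Sult1a1 and Sult1d1 gave 0.09 ± 0.20 and 0.05 ± 0.25, the cholesterol sulfotransferase Sult2b1 -0.18 ± 0.14 and Ugt2b35 -0.18 ± 0.18. For 23 of the 25 the 95% interval lay within 2-fold.

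**Figure D4:**
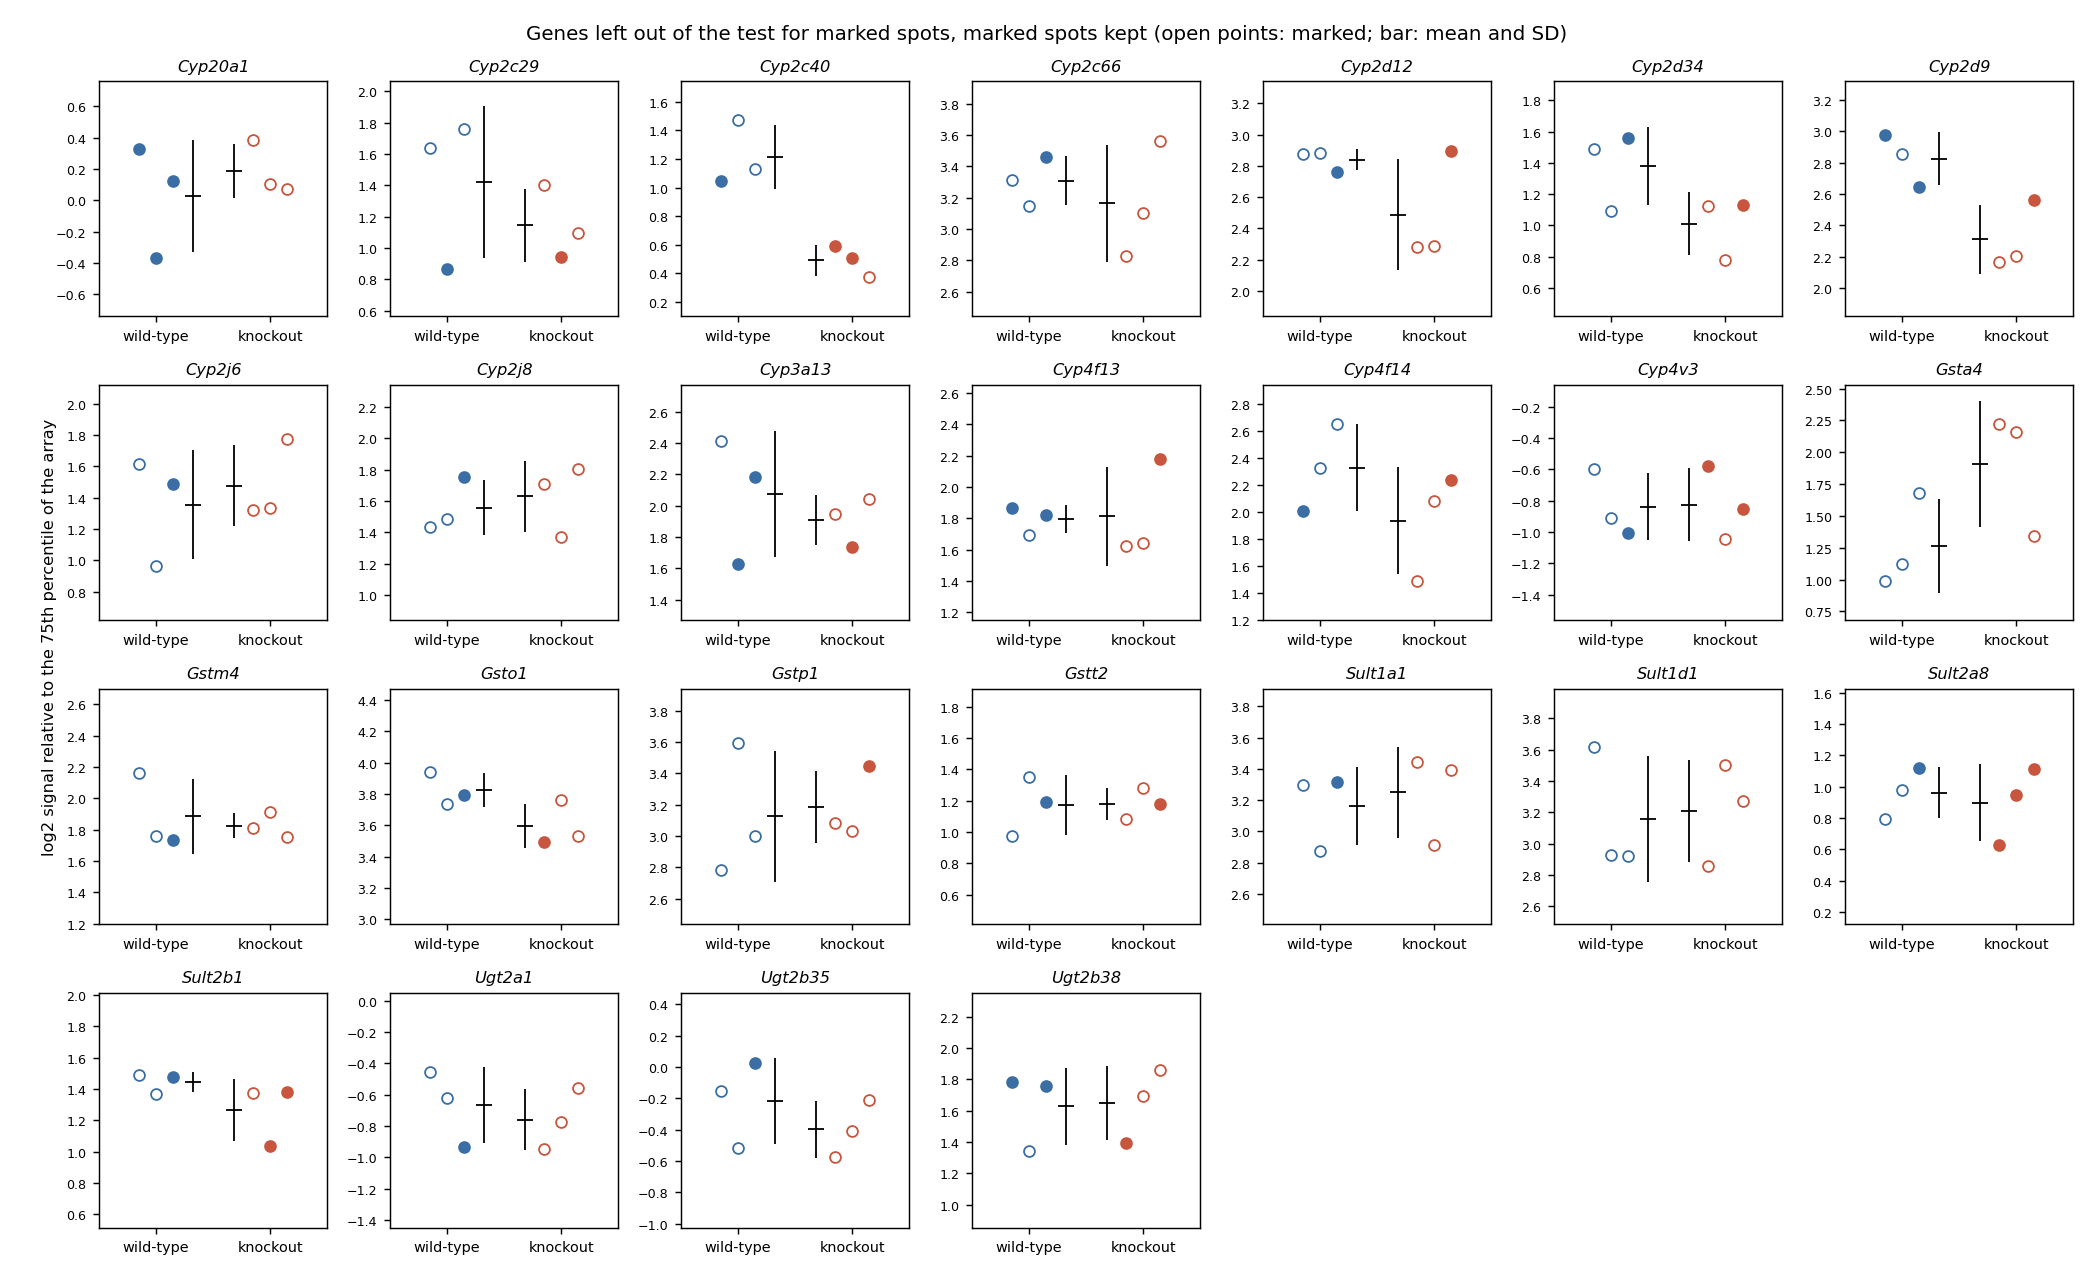
Log2 signal relative to the array's 75th percentile for the 25 detected genes left out of the main test, with marked spots kept (open points) and unmarked spots filled, 1 point per array, and the mean and SD of each group; each panel has its own scale. Cyp2c40 and Cyp2d9 are the 2 genes whose groups do not overlap.

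Other genes of drug handling were also compared, as a list of 86 regulators, electron donors and cofactor enzymes, other oxidising or hydrolysing enzymes, other conjugating enzymes and transporters. Of these 54 were tested, with 0 called, 0 higher and 1 lower at an unadjusted p under 0.05, and a median log2 change of -0.01. The 11 tested regulators, the 9 electron donors and cofactor enzymes, the 18 other oxidising or hydrolysing enzymes, the 6 other conjugating enzymes and the 10 transporters had medians of 0.00, -0.02, -0.03, -0.13 and 0.08. Glyat, a mitochondrial glycine conjugating enzyme, measured -6.11, -6.32 and -6.32 in wild-type and -6.95, -7.26 and -6.53 in knockout mice. Every knockout array was lower, at a log2 change of -0.66 ± 0.20 (unadjusted p = 0.0126, adjusted p = 0.326). Only 1 knockout array was well above background for Glyat, so this size is not a measured fold. Fmo5, a flavin monooxygenase, gave 0.38 ± 0.17, Fmo2 -0.56 ± 0.27, the organic anion carrier Slco4a1 0.40 ± 0.21, the organic cation carrier Slc22a3 0.41 ± 0.21, the electron donor Cyb5b 0.31 ± 0.16 (n = 2 and 2), the prostaglandin E synthase Ptges -0.40 ± 0.26 and the export pump Abcc4 -0.49 ± 0.31 (n = 2 and 2). With marked spots kept, 82 of the list were measured and 0 called. The carboxylesterases Ces1g and Ces1d then had log2 changes of 1.11 ± 0.35 and 0.75 ± 0.24 and the flavin monooxygenase Fmo1 -0.55 ± 0.18, each without overlap (adjusted p = 0.363, 0.374 and 0.363). For genes with several probes the brightest could then be another one, and directions turned: Fmo1 gave 0.24 ± 0.23, with overlap, by the probe tested with marked spots left out, and Cyb5b gave -0.13 ± 0.19 with marked spots kept.

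Facts of the arrays bear on all of these values. Each array had 66.6% to 75.6% of its probes well above background, the 75th percentile of signal was 3005 to 3539, and 0 spots were saturated. Signals across probes had correlations (Pearson's r) between 0.987 and 0.989 within wild-type, 0.985 to 0.989 within knockout and 0.979 to 0.989 between genotypes, which describes probes and not independent replicates. All wild-type arrays lay in row 2 and all knockout arrays in row 1 of the same slide, so slide row and genotype cannot be told apart. With marked spots kept, as in the sums that follow, all 6 epithelial markers were measured, with a median log2 change of 0.00. Their changes ran from -0.31 ± 0.17 for Epcam, lower on every knockout array (adjusted p = 0.576), to 0.16 ± 0.13 for Krt20. With marked spots left out, Epcam, Cdh1, Vil1 and Cdx2 could not be tested. Leukocyte markers summed to 17.2 to 20.5 in wild-type and 19.0 to 21.0 in knockout mice, and stromal markers to 12.6 to 14.5 and 9.79 to 15.6 times the 75th percentile. A single gene held most of each sum, Itgam (91.6% to 94.9%) and Acta2 (88.9% to 94.7%). Without these the leukocyte sums were 1.05 to 1.45 and 1.19 to 1.52 and the stromal sums 0.77 to 1.40 and 0.64 to 1.63, so both overlapped. The stromal sum with Acta2 depends on the probe used. Its mean log2 level there was 3.63 in wild-type and 3.55 in knockout mice. With marked spots left out, another Acta2 probe gave -5.19 and -5.22. No probe matched Mir31, so the arrays do not check the deletion. The labels do not say more of how the mice were housed or matched. Each p-value sets a difference against the spread between 2 or 3 mice in each group, as moderated by limma over all features.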

How the data were processed

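The deposited scanner files give the processed intensity of each spot, made by the authors with Agilent Feature Extraction 11.5.1.1 per the file headers (10.7 per the submitters' processing notes), background-subtracted and not normalized between arrays. Of the values in the deposited series table, 99.7% lay within 0.01 log2 units of the same intensities. From these the log2 intensity was taken, the 75th percentile of the array over non-control spots was subtracted, spots marked (uneven, outliers among copies, or manual) were dropped, and spots of a probe were averaged. A feature was tested when well above background on at least 3 of 6 arrays with at least 2 unmarked arrays per group. Of several probes of a gene the brightest was used. Names came from a RefSeq gene table (GRCm38.p6). The array design names another build, so its coordinates are not given.

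Groups were compared with limma 3.58.1 in R 4.3.3, tables being read with data.table (version 1.17.8), two-sided, with no covariate and Benjamini-Hochberg adjustment over all 27916 features at a threshold of 0.05. The code was tested on simulated data. Intervals are limma's 95% intervals, and the number of arrays limits the precision.

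Members, lists, and the set of 47 enzymes always named were chosen with earlier results of these data known. Also named were members called, the 5 smallest unadjusted p per family and direction, members at least 2-fold apart without overlap, those with a bound in 1 group, and the 4 smallest per direction of the drug handling list. Genes singled out after their values were seen are Cyp2a12, Abcc2, Cyp3a44, Cyp3a16 and other Cyp3a, Cyp2d and marked genes, and Ces1g, Ces1d and Fmo1. Alternatives covered background correction, scaling, filters, marked spots, probes, variance model, array weights, blocks and single arrays left out.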

Additional observations from a re-analysis of the deposited data

How the results depend on the processing

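The count of members called was 0 in every alternative except without knockout replicate 1, where it was 1 (Cyp2a12), so leaving out single arrays gave 0 to 1. The drug handling list had 0 called except with slide column as a block, which called 1 gene, Abcc2 (log2 change -1.41 ± 0.17, adjusted p = 0.0449, with overlapping groups and adjusted p up to 0.991 in its other alternatives). Abcc2 was well above background on only 1 knockout array, so this size is not a measured fold. Members higher at an unadjusted p under 0.05, 4 as reported, numbered 9 with quantile normalization, 7 without the filter on dim probes, 8 with slide column as a block, 9 with the animal number block and 2 to 6 with 1 array left out. Members lower, 8 as reported, numbered 2 to 12 with 1 array left out. The Sult median of -0.31 was -0.21 with normexp, 0.36 without the filter on dim probes, -0.065 with marked spots kept and -0.352 to -0.0386 with 1 array left out. The Cyp median of -0.10 was -0.18 with slide column as a block and -0.106 to -0.0205 with 1 array left out. The Gst and Ugt medians moved by less than the spread between arrays in all alternatives, but with 1 array left out both took either sign, the Gst median from -0.062 to 0.064 and the Ugt median from -0.056 to 0.137. Cyp21a1 had the opposite sign, a log2 change of 0.49, with the mean of its probes, because its probes disagree. For these results, other than Cyp21a1 and the leave-one-out values, the cause was not tested. Of 1012 values of named genes under alternatives, 970 kept sign and side of the threshold, 39 changed sign with an unadjusted p of at least 0.05 on both sides, and 2 newly passed.

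The animal number block, which sets replicates 1 and 2 of each genotype, whose numbers start with the same digits, against the replicate 3 mice, had 0 members called and gave Cyp4b1 a log2 change of 1.19 ± 0.20 (adjusted p = 0.129) and Cyp3a44 1.51 ± 0.42 (adjusted p = 0.269). Over the alternatives the adjusted p of Cyp4b1 ran from 0.0896 to 0.758 and that of Cyp3a44 from 0.0712 to 0.883. The labels do not say that the digits number animals or mark a batch, and the replicate 3 numbers differ from each other in these leading digits. The labels also give the groups no shared replicate numbers, so no fit was blocked on replicate number. The slide column block compares genotypes within columns 1 and 2, since the replicate 3 arrays lie in columns of their own. Normexp was run on median signals, an alternative chosen after seeing the data, since the planned mean signal column is not in the files used here, and that planned version was not run. The median over all features stayed between -0.10 and -0.01 in every alternative. Probes near background, such as those of Cyp2a12, Cyp26b1 and Cyp27b1, have sizes that depend on the floor of their arrays.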
